A study of Homo sapiens with 2 samples.

Results

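Cluster 0 is the largest group of cells in human mesenchymal stem cells from adipose tissue that were exposed to transforming growth factor beta 1 (TGFB1). Its members are the cells that the authors' table places in the TGFB1 library and in cluster 0 of their clustering at resolution 0.4. They number 5303 of the 12555 cells of that library (42.2%) and of 20656 cells in all. A further 16 cells of cluster 0 belong to the untreated library and were kept apart. The cells were bought as adipose-derived mesenchymal stem cells, grown to 90% confluency in 10 cm plates and starved overnight. The TGFB1 library holds cells that then received TGFB1 at 10 ng/mL for 24 hours, and the untreated library holds cells left without it (8101 cells). Both were detached with trypsin and EDTA, frozen in Bambanker medium and profiled with 10x single-cell sequencing, per the labels. The questions taken here are how cluster 0 differs from clusters 3 and 4, the next largest clusters of the TGFB1 library (2543 and 2421 cells), and how it stands against untreated cells.

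TGFB1 is a secreted factor that binds a pair of receptor kinases, TGFBR1 and TGFBR2, which phosphorylate SMAD2 and SMAD3. In stromal cells this induces contractile proteins, collagens and other matrix genes, and also the pathway's own inhibitors, such as SMAD7, PMEPA1 and SKIL. Interleukin 11 (IL11), a cytokine of the interleukin 6 family, is a known TGFB1 target in fibroblasts. Adipose stromal progenitors are known for DPP4, PI16 and CD55, and fibroblasts that have turned contractile, the myofibroblasts, for ACTA2, TAGLN and POSTN.

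There was 1 library per condition, so no difference has a replicate check and no p-value was computed. Unique molecular identifiers (UMIs) were summed over the cells of a group and scaled to a common total (CPM). A gene entered a comparison at 5 CPM or more on either side, and is called higher or lower from a ratio of 1.5. Ratios carry exact conditional binomial (Clopper-Pearson) 95% intervals, which cover counting error only. Intervals of cell shares take cells as independent draws from 1 library. They do not cover differences between cultures. The clusters were made by the authors from the expression of these same cells, so a difference between clusters describes them and tests nothing. The labels do not tie the cells of a library to separate cultures, and treatment and library cannot be told apart.

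Cells of cluster 0 were shallower and more uneven in depth than those of clusters 3 and 4 and of the untreated library. Their median was 12007 UMIs and 3928 genes per cell, against 21819 UMIs in cluster 3, 15941 in cluster 4 and 19249 in untreated cells. The interquartile range of cluster 0 was 6461.5 to 21927 UMIs. In it 1663 cells (31.4%) held fewer than 7500 UMIs, against 233 (4.69%) of the cells of clusters 3 and 4. The median share of mitochondrial UMIs per cell was 2.38% in cluster 0, 2.87% in cluster 3 and 2.08% in cluster 4. Ribosomal protein genes took 12.98% of all UMIs in cluster 0, 13.48% in cluster 3, 16.82% in cluster 4 and 15.33% in the untreated library. Because of the depth gap, each ratio was also computed after thinning every cell to 7500 UMIs, which keeps 3640 cells of cluster 0. Of the cell barcodes, 18 occurred in both libraries, 5 of them in cluster 0.

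**Figure D1:**
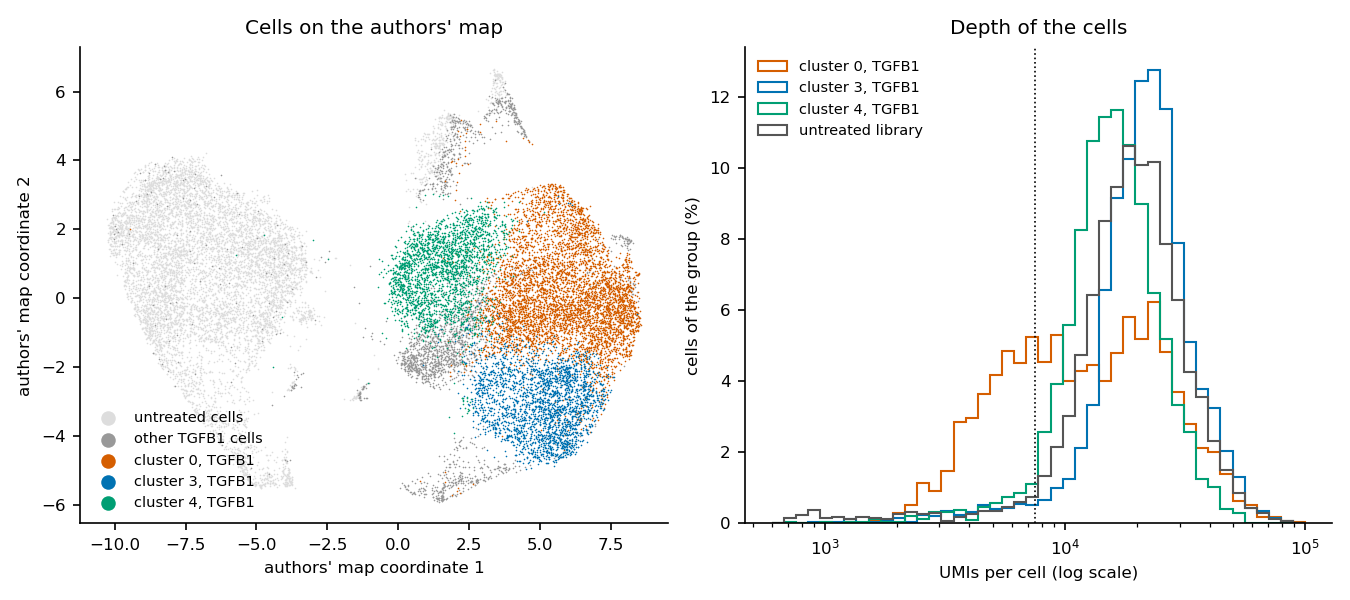
Left, every cell on the 2 map coordinates deposited by the authors, coloured by cluster for the TGFB1 library, with untreated cells in light grey. Right, the share of each group's cells (%) by UMIs per cell on a log scale, with a dotted line at 7500 UMIs. Cluster 0 has a broad distribution with 31.4% of its cells left of the line, while 4.69% of the cells of clusters 3 and 4 lie there.

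The label was checked against marker genes. Of 12 mesenchymal stromal markers 11 reached 5 CPM in cluster 0, the exception being the endoglin gene ENG at 3.67 CPM, which is low in the untreated library too (6.67 CPM). All 12 myofibroblast markers and all 7 adipose progenitor markers did so. The summed level of the myofibroblast markers was 48429 CPM in cluster 0, 44481 in cluster 3, 54466 in cluster 4 and 26633 in the untreated library. No adipocyte (6), endothelial (7), melanocyte (5) or cycling (5) marker reached 5 CPM in cluster 0, and 4 of the adipocyte markers were at 0 UMIs. Among 7 immune markers only CD68, which stromal cells also carry, passed, and a UMI of the leukocyte gene PTPRC was found in 10 of 3640 thinned cells. Of 6 epithelial markers only the keratin gene KRT18 passed, at 84.7, 32.5, 119 and 35.1 CPM in cluster 0, cluster 3, cluster 4 and the untreated library. Among 10 mural markers 3 passed. The untreated library also reached 5 CPM for all 12 stromal, 12 myofibroblast and 7 progenitor markers, so this limit does not set treated cells apart. Of the myofibroblast markers only POSTN was lower in cluster 0 than in the untreated library, at 169.9 against 304 CPM. The cells therefore carry stromal and myofibroblast markers, as untreated cells do, with a higher myofibroblast sum.

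Against the untreated library, cluster 0 carried more of the SMAD response, contractile and adhesion transcripts. Of 11002 genes tested, 1160 (10.5%) were higher and 1609 (14.6%) lower in cluster 0, with a median log2 ratio of -0.07. SMAD response and feedback genes were higher in 18 of 24 cases and lower in 1 (median log2 ratio 1.26). The lower one was SNAI2, a repressor of epithelial genes, at 45.5 CPM against 73.1. In the contractile apparatus 19 of 27 genes were higher and 0 lower (median 0.91). TPM1, a tropomyosin of the actin filament, was at 6956 CPM in cluster 0, 8194 in cluster 3, 8140 in cluster 4 and 1457 in untreated cells. ACTA2, smooth muscle actin, was at 1249 against 202 CPM and was found in 91.9% of thinned cells of cluster 0 and 45.5% of thinned untreated cells. Integrins and focal adhesion genes followed, with 16 of 30 higher and 1 lower (median 0.62). Clusters 3 and 4 shared these rises. The contractile list summed to 51234 CPM in cluster 0, 52543 in cluster 3, 64273 in cluster 4 and 27719 in the untreated library. In that order the SMAD list summed to 6663, 7500, 6345 and 2371 CPM, and the adhesion list to 8423, 8203, 7028 and 5473.

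Rankings of genes by ratio, here and below, take genes at 20 CPM or more on either side. Among the 10 genes with the largest ratios over the untreated library was TSPAN13, a tetraspanin on chromosome 7 from 16753535 to 16784536 (GENCODE 29, GRCh38), which was 33.6-fold higher (28.9 to 39.1). KANK4, a cytoskeletal adaptor, was 43.5-fold higher (37.1 to 51.3), and IL11, on chromosome 19 from 55364389 to 55370463, was 35.4-fold higher (32.4 to 38.7). LDLRAD4, which limits SMAD phosphorylation, was 23.8-fold higher, and PMEPA1, which keeps SMAD2 and SMAD3 from the receptor, was 9.27-fold higher. The cyclin-dependent kinase inhibitor gene CDKN2B stood at 349 against 39.98 CPM. The tetraspanin gene TSPAN2 (13.5-fold higher), MAMDC2 (8.31-fold higher) and 2 long non-coding genes complete the 10. Among the lowest were FGF13, an intracellular homologue of fibroblast growth factors (25.2-fold lower), the syntrophin gene SNTG1 (29.7-fold lower), the claudin gene CLDN11 (16.7-fold lower) and the pattern recognition gene PTX3 (15.5-fold lower).

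Proliferation genes were low in cluster 0. The clustering bears on this, since the TGFB1 library has a separate cluster 8 (348 cells) in which 69.0% of thinned cells held an MKI67 or TOP2A UMI, while the untreated library keeps its cycling cells. Without thinning, such a UMI was present in 7.91% of all cells of the TGFB1 library and 17.4% of untreated cells. All 23 measured genes of G2 and M phase were lower than in the untreated library, with a median log2 ratio of -3.01, and 12 of 15 S phase genes were lower (median -1.17). TOP2A, the topoisomerase of dividing cells, was at 3.78 CPM in cluster 0, 1.60 in cluster 3, 1.44 in cluster 4 and 49.5 in the untreated library. MKI67, the Ki-67 antigen, stood at 2.14, 1.72, 0.312 and 28.3 CPM in the same order. After thinning, an MKI67 or TOP2A UMI was present in 3.98% of cells of cluster 0 (exact 95% interval 3.37 to 4.67%), 2.46% of cluster 3, 1.26% of cluster 4 and 11.5% of untreated cells. Interferon genes (0 of 21 higher, 10 lower), inflammatory genes (4 higher and 14 lower of 22), adipose progenitor genes (5 higher and 10 lower of 17) and stromal identity genes (0 higher and 12 lower of 19) were also mostly lower than without TGFB1. PI16 (60.6 against 10.1 CPM) and CD55 (198 against 62.9 CPM) were among the 5 higher progenitor genes. DPP4 (89.9 against 206 CPM) was among the lower ones.

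Cluster 0 differed from the pool of clusters 3 and 4 mostly by genes that were higher in it. Of 10487 genes tested, 985 (9.39%) were higher in cluster 0 and 136 (1.30%) lower, and at 2-fold the counts were 255 and 20. That split depends on the scaling. The trimmed mean of M-values (TMM) moved the median log2 ratio of all genes by -0.22 in this comparison, by -0.04 against cluster 3, by -0.43 against cluster 4 and by 0.07 against the untreated library. TMM split the calls into 474 higher and 753 lower, and median-of-ratios scaling into 425 and 948. Across settings 425 genes stayed higher and 118 stayed lower under CPM, TMM, median-of-ratios and thinned counts alike. Each scaling shifts all log2 ratios alike, so these are the counts of the strictest setting on each side. The 425 equal the median-of-ratios count, and the 118 those of CPM and thinning. Their imbalance is therefore no check on the split. The genes named next from this comparison kept their direction in every alternative run. This is no test for the scalings, whose shifts are too small to reverse a 1.5-fold ratio. Nor is it one for thinning, since the genes of largest and smallest ratio were chosen to keep their direction after it.

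Taken singly, the clusters gave different pictures. Against cluster 3, 679 of 10577 genes (6.42%) were higher in cluster 0 and 371 (3.51%) lower, with a median log2 ratio of -0.01. With TMM these counts were 620 and 428, and 598 and 336 genes held under the 3 scalings and thinning. Against cluster 4, 3420 of 10481 genes (32.6%) were higher and 161 (1.54%) lower. The median log2 ratio was 0.26. With TMM the counts were 1646 and 2673, and 1629 and 147 genes held. The 1629 equal the median-of-ratios count and the 147 those of CPM and thinning, so their imbalance is no check either.

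Among genes at 20 CPM or more the largest ratio over clusters 3 and 4 belonged to a long intergenic RNA named by its Ensembl identifier ENSG00000223786, on chromosome 6 from 74069451 to 74690727. It stood at 66.4 CPM in cluster 0, 7.38 in cluster 3, 10.2 in cluster 4 and 37.9 in the untreated library, and it was 7.78-fold higher (7.24 to 8.37) than in clusters 3 and 4. A second such RNA, ENSG00000248656 on chromosome 4 from 111640495 to 111648808, stood at 30.4, 4.09, 7.25 and 8.37 CPM in cluster 0, cluster 3, cluster 4 and the untreated library, the order in which values are given from here on. Of the protein-coding genes at that level RASGRF2, an exchange factor for Ras, led at 37.5 CPM in cluster 0, 7.26 in cluster 3, 12.2 in cluster 4 and 11.1 in the untreated library, a level 4.03-fold higher (3.74 to 4.34) than in clusters 3 and 4. PCSK5, a proprotein convertase, showed the same order with 32.8, 8.08, 11.1 and 10.7 CPM. These 4 genes were higher in cluster 0 than in any of the 3 other groups.

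EBF1, a transcription factor of stromal and adipose precursors on chromosome 5 from 158695916 to 159099761, was at 46.3 CPM in cluster 0, 12.9 in cluster 3, 13.8 in cluster 4 and 75.4 in the untreated library. SFRP4, a secreted Wnt antagonist, was at 41.1, 7.97, 19.5 and 66.1 CPM. DLG2, a scaffold protein, stood at 31.3, 11.5, 7.10 and 40.7 CPM. In these 3 genes the untreated level was the highest and cluster 0 lay next to it, above both other treated clusters. The calcium channel subunit gene CACNB4 (27.6, 7.52, 7.20 and 25.5 CPM), the choline-pathway enzyme gene DMGDH (46.8, 12.6, 13.5 and 45.4 CPM) and the basement membrane gene FRAS1 (24.4, 7.57, 7.78 and 25.6 CPM) had nearly equal levels in cluster 0 and untreated cells. A UMI of EBF1 was found in 25.4% (exact 95% interval 24.03 to 26.9%) of thinned cells of cluster 0, 7.71% of cluster 3, 9.59% of cluster 4 and 34.5% of the untreated library.

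TALAM1, a transcript antisense to the nuclear RNA MALAT1, was at 959, 398, 54.3 and 352 CPM, the lowest level being that of cluster 4. The sources used here do not say whether counting used strand. Reads of MALAT1 may therefore have been counted as TALAM1, and the level is uncertain. MALAT1 itself was at 21714, 16026, 7845 and 18789 CPM. The 15 genes of largest ratio also hold USP54, LINC02456, LINC02694 and the RNA ENSG00000226965.

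In CPM, genes lower in cluster 0 than in both other clusters were few, 29 of 10433 tested against each. Genes lower than in cluster 4 alone rose from 161 in CPM to 2673 with TMM, and the 29 were not recounted. BAALC, a small membrane-associated protein on chromosome 8 from 103140710 to 103230305, was at 19.3 CPM in cluster 0, 92.7 in cluster 3, 28.9 in cluster 4 and 31.2 in the untreated library and was 3.45-fold lower (3.26 to 3.64) than in clusters 3 and 4. Thinned cells held a BAALC UMI in 11.2% (exact 95% interval 10.2 to 12.3%) of cases in cluster 0, 44.8% in cluster 3 and 15.8% in cluster 4. GAL, the neuropeptide galanin, was at 23.7, 71.1, 43.99 and 6.41 CPM. S100A4, a calcium-binding protein of motile stromal cells, stood at 732, 1712, 1409 and 2236 CPM, its lowest level being that of cluster 0. FABP5, a fatty acid carrier (20.97, 60.9, 35.4 and 35.1 CPM), had the same order among the treated clusters. The 15 lowest ratios over the pool of clusters 3 and 4 also include genes that were less than 1.5-fold below cluster 4, among them the caveolin gene CAV1 (196, 369.9, 271 and 977 CPM), TUBA1B, NPPB and TSPAN13. Against the pool, the tubulin genes TUBA1B (1.76-fold lower) and TUBB3 (1.72-fold lower), the proteasome activator gene PSME2 (1.93-fold lower), the natriuretic peptide gene NPPB (2.03-fold lower) and TSPAN13 (1.74-fold lower) were among the 15 lowest.

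**Figure D2:**
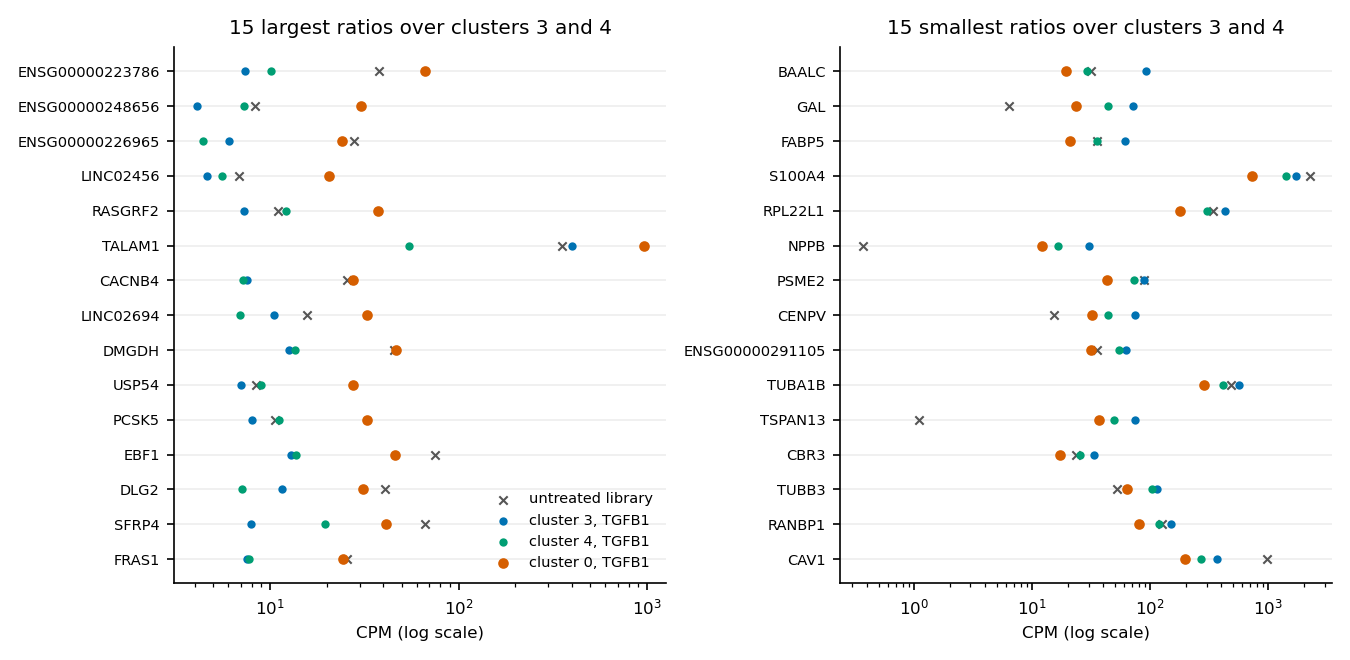
CPM on a log scale of the 15 genes with the largest (left) and smallest (right) ratio of cluster 0 over clusters 3 and 4, in cluster 0 (large points), clusters 3 and 4 (small points) and the untreated library (crosses). Points stand for UMI sums of a group and have no replicates. On the left cluster 0 lies above both other treated clusters for each gene. The crosses of EBF1, SFRP4, DLG2, FRAS1 and ENSG00000226965 lie above cluster 0, the last 2 by little. On the right cluster 0 is the lowest of the treated clusters.

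Gene length and class moved with these differences. GENCODE 29 gave a genomic span to 95.2% of tested genes, and protein-coding genes were divided into 5 equal bins by span (limits at 12.6, 28.3, 52.7 and 112 kb). The median log2 ratio of cluster 0 over cluster 4 was -0.32 in the bin of shortest genes, -0.03, 0.24 and 0.52 in the next ones and 0.97 in the longest, where 1496 of 1895 genes were higher in cluster 0 (78.9%) and 0 lower. Against cluster 3 the same medians ran from -0.10 to 0.05, and 188 genes of the longest bin were higher. Of 471 long non-coding genes 330 were higher in cluster 0 than in cluster 4 (median 1.26) and 95 than in cluster 3 (median 0.16). These genes took 3.90% of UMIs in cluster 0, 3.20% in cluster 3, 1.71% in cluster 4 and 3.36% in the untreated library. MALAT1 and NEAT1, which stay in the nucleus, took 2.53%, 1.89%, 0.905% and 2.21% in the same order. Their part in the differences below was not tested.

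**Figure D3:**
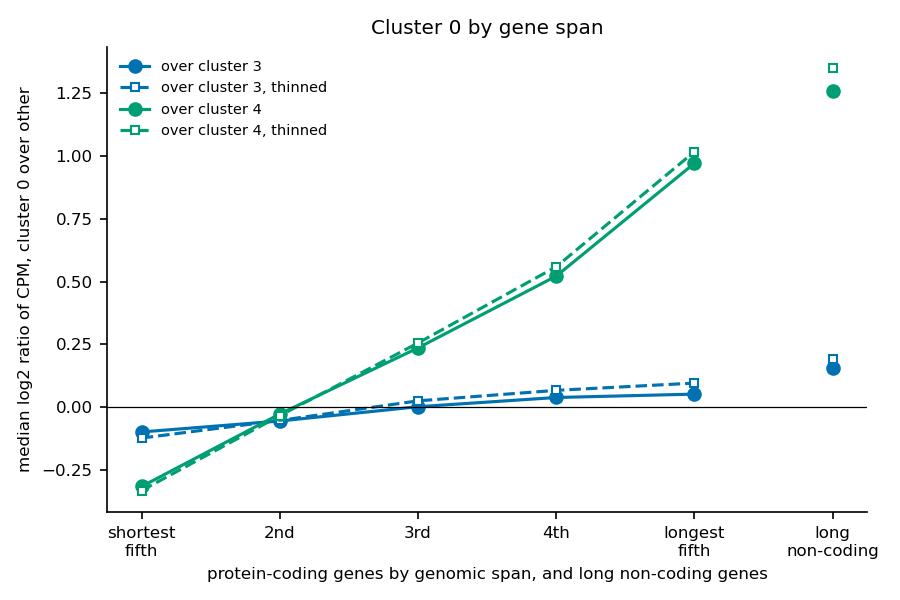
Median log2 ratio of CPM of cluster 0 over cluster 3 (blue) and over cluster 4 (green) for 5 equal bins of protein-coding genes by genomic span and for long non-coding genes, from all UMIs (filled circles) and after thinning to 7500 UMIs (open squares). The green line climbs from -0.32 to 0.97 and the blue line from -0.10 to 0.05.

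Against cluster 3 the counts moved least with the scaling. List counts against cluster 3, from here on, stand beside 6.42% of all genes higher and 3.51% lower. Those against cluster 4 stand beside 32.6% higher and 1.54% lower in CPM. With TMM they stand beside 1646 higher and 2673 lower of 10481 genes. The 8 genes of largest ratio include INMT, a methyltransferase (5.76-fold higher), RARRES2, the precursor of the attractant chemerin (6.06-fold higher), and RSPO3, a Wnt enhancer (4.94-fold higher). CEMIP, which breaks down hyaluronan, stood at 629.5 CPM in cluster 0, 133 in cluster 3, 306 in cluster 4 and 1737 in the untreated library and was 4.75-fold higher (4.64 to 4.86). It was found in 80.7% of thinned cells of cluster 0, 31.6% of cluster 3 and 53.9% of cluster 4. HAS2, which makes hyaluronan, ran the other way, at 52.6, 174, 44.01 and 66.9 CPM, 3.30-fold lower (3.18 to 3.42) than in cluster 3. The enzyme of nucleotide supply TK1 (4.86-fold lower), the replication factor PCLAF (3.43-fold lower), the lymphatic growth gene CCBE1 (3.81-fold lower) and the sulfotransferase gene CHST8 (3.50-fold lower) were also among the 8 lowest.

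Inflammatory and complement genes were higher in cluster 0 than in cluster 3 across most of the list. Here 13 of 17 measured genes exceeded cluster 3 and 1 fell short of it by 1.5-fold or more (median log2 ratio 1.22), and with TMM 11 and 1 (median 1.18). IL1B, interleukin 1 beta, was at 16.4 CPM in cluster 0, 3.94 in cluster 3, 16.4 in cluster 4 and 19.2 in the untreated library. The chemokine gene CCL2 stood at 117, 40.5, 138 and 82.9 CPM, the adhesion gene ICAM1 at 14.4, 3.31, 13.01 and 16.1 CPM and the mitochondrial dismutase gene SOD2, a target of nuclear factor kappa B, at 129, 48.8, 98.2 and 336 CPM. Complement C3 (32.3, 6.99, 27.8 and 49.02 CPM) and the complement proteases C1R (90.2, 40.3, 96.4 and 159 CPM) and C1S (117, 51.04, 109.6 and 177 CPM) were likewise more than 2-fold above cluster 3. PTGS2, which makes prostaglandins, was at 27.9, 8.38, 15.7 and 8.38 CPM, above every other group. Except for PTGS2, the levels named were within 1.5-fold of those of cluster 4. Against cluster 4 the list held 3 of 17 genes higher (IL1R1, PTGS2 and NFKB1), a smaller share than the 32.6% of all genes, and 0 lower. The median was -0.01, which TMM moved to -0.44 with 0 higher and 2 lower. The gene lower than in cluster 3 was CXCL12, a chemokine near the minimum level (5.38, 9.09, 5.14 and 20.4 CPM). Interferon genes had 3 of 19 higher than in cluster 3 and 0 lower.

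Matrix genes formed a second group. Of 36 proteoglycans and matrix glycoproteins 15 were higher than in cluster 3 and 1, HAS2, lower (median 0.43), and with TMM 14 and 2. ELN, which encodes elastin, was at 1076, 542, 1094 and 843 CPM and the microfibril gene MFAP5 at 644, 332, 792 and 586 CPM. POSTN, the adhesion protein periostin, stood at 169.9 CPM in cluster 0, 53.9 in cluster 3, 86.6 in cluster 4 and 304 in the untreated library. Thrombospondin 2, THBS2 (172, 62.8, 133 and 125 CPM), laminin alpha 4, LAMA4 (231, 84.02, 147 and 304 CPM), and spondin 1, SPON1 (15.5, 4.22, 7.85 and 11.2 CPM), were above both other treated clusters. Of 21 collagens 6 were higher than in cluster 3 (COL3A1, COL4A1, COL4A2, COL5A2, COL12A1 and COL15A1) and 1 lower (COL7A1), under CPM and TMM alike. COL12A1, a collagen on fibril surfaces, was at 728, 397, 405 and 479.8 CPM, and COL15A1 of the basement membrane at 21.7, 6.67, 17.6 and 19.999 CPM. COL1A1, the main fibrillar collagen, was at 10498, 7661, 9559.7 and 6862 CPM, 1.37-fold higher than in cluster 3 and short of the 1.5 limit. COL7A1, which anchors epithelia, stood at 10.6, 22.9, 10.9 and 2.75 CPM.

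Enzymes that shape the matrix were divided. Of 24 genes of collagen modification 2 were higher than in cluster 3, LOX and TGM2, and 3 lower (LOXL1, P3H2 and PCOLCE2). TGM2, a transglutaminase that crosslinks proteins, was at 267, 83.003, 242 and 132 CPM. The protease list of 22 had 5 members above cluster 3 (TIMP3, ADAMTS1, MMP3, MMP14 and MMP16) and 4 below it (MMP1, PLAU, PLAUR and ADAM19). TIMP3, an inhibitor held in the matrix, was at 1053, 502, 1085 and 363 CPM, equal in clusters 0 and 4. The plasminogen activator gene PLAU stood at 5.91, 11.5, 6.34 and 20.3 CPM.

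Contractile genes were near the level of cluster 3 as a list (median -0.07, 4 of 27 higher, 0 lower), yet 4 members stood well above it. They were the non-muscle myosin gene MYH10 (827, 317, 502 and 439 CPM), the myosin kinase gene MYLK (445, 188, 380.2 and 226 CPM), synaptopodin 2, SYNPO2 (333, 137, 272 and 296 CPM), and cardiac actin, ACTC1 (67.7, 21.8, 78.1 and 15.04 CPM). ACTA2 was at 1249, 987, 1885 and 202 CPM and TAGLN, or transgelin, at 8170.4, 7773, 11802 and 4970.3 CPM, so that cluster 4 was the highest for both. With TMM 1 contractile gene passed as lower than in cluster 3. Against cluster 4, 13 of 27 passed as lower with TMM, beside 2673 of all 10481 genes, and 2 in CPM. Integrin subunits ITGA1 (93.7, 38.4, 50.8 and 26.7 CPM), ITGA2 (166, 82.97, 109 and 73.9 CPM), ITGA4 (87.5, 33.9, 65.1 and 56.5 CPM) and the collagen receptor ITGA11 (469, 246, 223 and 226 CPM) were higher than in cluster 3, while the filamin gene FLNC was lower (88.9, 136, 96.8 and 56.1 CPM). The other 24 of 29 adhesion genes passed in neither direction.

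The TGFB pathway itself differed in parts. Of 25 ligands, receptors and associated genes 7 were higher than in cluster 3 and 1 lower (5 and 2 with TMM). INHBA, the activin A subunit, stood at 481, 321, 401 and 133 CPM, just short of 1.5-fold, and its antagonist follistatin, FST, at 109.7, 43.1, 111 and 132 CPM. ACVR2A, an activin receptor, was at 57.4, 28.2, 23.1 and 62.5 CPM, above both other treated clusters and near the untreated level. TGFB3, a sister ligand of TGFB1, was at 9.22, 3.70, 6.53 and 4.65 CPM. The receptors TGFBR1 (195, 159.7, 111 and 85.01 CPM) and TGFBR2 (214, 159, 138 and 379.8 CPM) were higher in cluster 0 than in cluster 3 by less than 1.5-fold.

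SMAD targets and feedback genes did not set cluster 0 apart from cluster 3 as a list, with 1 of 24 higher, 3 lower and a median of -0.04. The higher one was BAMBI, a decoy receptor, at 35.04, 9.51, 28.8 and 16.96 CPM. The lower ones were COL7A1, the adhesion protease gene ADAM19 (144, 224, 99.02 and 41.6 CPM) and the sphingosine kinase gene SPHK1 (55.5, 94.6, 79.8 and 15.5 CPM). SMAD7, which blocks the receptor, was at 36.7, 37.8, 27.3 and 15.2 CPM. Against cluster 4, 6 of 24 were higher, a smaller share than the 32.6% of all genes, and 0 lower (5 and 2 with TMM, median 0.15 in CPM and -0.28 with TMM). The higher ones include the oxidase gene NOX4 (118, 86.96, 42.6 and 16.5 CPM) and the ubiquitin ligase gene SMURF1 (70.9, 81.2, 25.5 and 39.7 CPM).

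Bone morphogenetic protein (BMP) genes had 6 of 17 higher than in cluster 3 and 1 lower. BMP6, a ligand, was at 417, 225, 190.5 and 54.03 CPM, 1.86-fold higher (1.82 to 1.89) than in cluster 3 and 2.19-fold higher than in cluster 4. GREM1, a secreted BMP antagonist, stood at 943, 494, 729 and 897 CPM, and the target ID2 at 399, 210.4, 378 and 310.2 CPM. GDF15, a stress cytokine that is not itself a BMP, was at 11.9, 1.57, 11.02 and 10.7 CPM. The ligand GDF6 was the lower one, at 3.36, 10.04, 3.19 and 0.160 CPM.

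In the interleukin 6 family, IL11 was lower in cluster 0 than in either other cluster. Its level was 110.3 CPM in cluster 0, 183 in cluster 3, 160.0 in cluster 4 and 3.12 in the untreated library, 1.66-fold lower (1.62 to 1.71) than in cluster 3 and 1.45-fold lower (1.40 to 1.497) than in cluster 4, and the log2 ratio to both clusters was -0.66, or -0.66 after thinning. An IL11 UMI was found in 48.7% (exact 95% interval 47.05 to 50.3%) of 3640 thinned cells of cluster 0, 62.1% of cluster 3, 52.05% of cluster 4 and 2.17% of thinned untreated cells. The interval of cluster 4, 49.98 to 54.1%, overlaps that of cluster 0. LIF, a related ligand, stood at 11.1, 25.8, 11.02 and 1.48 CPM, so that cluster 3 was the highest. Interleukin 6 itself, IL6, was at 138, 110.4, 145 and 86.8 CPM and differed from both clusters by less than 1.5-fold. The receptor subunits IL11RA (11.5, 13.04, 16.1 and 19.1 CPM) and IL6ST (209.9, 156, 161 and 318 CPM) also stayed within 1.5-fold of both, and LIFR (16.2, 9.97, 8.90 and 20.8 CPM) was higher than in both. Of 14 members measured, LIFR was the 1 higher and IL11 and LIF the 2 lower than in cluster 3, and TMM left these counts at 1 and 2.

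Growth factors and Wnt genes held members with large differences in both directions. IGF1, insulin-like growth factor 1, was at 460.1 CPM in cluster 0, 120.1 in cluster 3, 303 in cluster 4 and 158 in the untreated library, 3.83-fold higher (3.74 to 3.93) than in cluster 3. Thinned cells carried an IGF1 UMI in 86.1% of cluster 0, 38.5% of cluster 3, 66.8% of cluster 4 and 45.4% of the untreated library. The binding proteins IGFBP5 (3103, 1118, 2934 and 5818 CPM) and IGFBP7 (590.4, 306, 649.7 and 538 CPM) and the epithelial growth factor gene FGF7 (301, 168, 218 and 433 CPM) were higher than in cluster 3 too. Neuregulin 1, NRG1 (93.99, 189.5, 41.1 and 40.6 CPM), and FGF5 (23.2, 36.3, 16.8 and 106 CPM) were lower. In all, 5 of 24 growth factors were higher and 3 lower. Of 22 Wnt genes 4 were higher (RSPO3, SFRP4, FZD1 and FZD4) and 1 lower, the ligand gene WNT5B (30.4, 75.5, 19.2 and 29.6 CPM).

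Genes induced by p53 were higher in cluster 0 than in cluster 3 in 8 of 19 cases and lower in 0, with a median log2 ratio of 0.48 (0.44 and again 8 with TMM). CDKN1A, the p21 inhibitor of cyclin-dependent kinases, was at 199 CPM in cluster 0, 79.3 in cluster 3, 155 in cluster 4 and 159.7 in the untreated library, and a UMI of it was found in 67.03% of thinned cells of cluster 0 and 34.8% of cluster 3. MDM2, which degrades p53, stood at 118, 64.3, 62.8 and 119 CPM, and the RNA-binding target ZMAT3 at 126, 56.2, 87.98 and 116 CPM. TP53INP1 (16.3, 6.96, 10.5 and 17.9 CPM), the death receptor gene TNFRSF10B (37.4, 19.5, 22.2 and 37.95 CPM) and RRM2B (34.3, 18.3, 25.5 and 33.7 CPM) were lowest in cluster 3. In each of these genes cluster 0 was above both other treated clusters and within 1.5-fold of the untreated level. Against cluster 4, 6 of 19 were higher in CPM, a share near the 32.6% of all genes, and 0 lower, but with TMM 1 and 5.

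Lysosomal genes were higher than in cluster 3 in 6 of 25 cases and lower in 0 (median 0.41, and 4 with TMM). PSAP, the precursor of the saposins, was at 204, 119, 190.3 and 203 CPM and progranulin, GRN, at 138, 83.4, 163 and 166 CPM. Among adipose progenitor genes 6 of 16 were higher than in cluster 3 and 2 lower. DPP4, a surface peptidase, stood at 89.9, 32.5, 75.2 and 206 CPM and the complement shield CD55 at 198, 107, 190.1 and 62.9 CPM, whereas PI16 was at 60.6, 77.95, 90.1 and 10.1 CPM. CD248, or endosialin (20.6, 36.5, 26.8 and 39.8 CPM), and PCOLCE2 (23.4, 37.5, 29.4 and 38.6 CPM) were the lower ones.

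Secretory genes tended to lower levels than in cluster 3. Of 32 genes of folding and secretion in the endoplasmic reticulum, 0 were higher and 4 lower than in cluster 3 (SDF2L1, SEC61G, SSR2 and SSR3), with a median log2 ratio of -0.26. Against cluster 4 the list had 2 of 32 higher, beside 32.6% of all genes, and 1 lower (median -0.19). With TMM 0 were higher and 18 lower (median -0.62). TMM moved every log2 ratio over cluster 4 by -0.43 and called 2673 of all 10481 genes lower. SEC61G, a subunit of the translocation channel, was at 576, 917, 948 and 384 CPM, and SSR3 at 410.5, 634, 543 and 328 CPM. Oxidative phosphorylation genes had 1 of 36 lower than in cluster 3, ATP5MC1 (127, 211, 194 and 140.5 CPM), with a median of -0.14. That share is near the 3.51% of all genes. Against cluster 4 their median was -0.50 with 5 of 36 lower, beside 1.54% of all genes. Under TMM it was -0.93 with 36 of 36 lower, beside 2673 of all 10481 genes. Translation elongation genes had medians of -0.04 against cluster 3 and -0.26 against cluster 4, where 0 of 22 were lower in CPM and 17 with TMM (median -0.68).

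The remaining lists had the following counts against cluster 3. Of all genes 6.42% were higher and 3.51% lower there, and several of these counts are near those shares. Targets of YAP and serum response factor had 1 of 23 higher, TGM2, and 3 lower (FOSL1, NUAK2 and MYOCD). Neuronal-type and guidance genes had 5 of 23 higher and 6 lower, with the guidance gene NTN4 at 31.4, 6.83, 16.6 and 66.9 CPM. Osteogenic and chondrogenic genes had 3 of 12 higher and 1 lower, ATF4 targets 4 of 21 and 2, glycolytic and hypoxia genes 1 of 26 and 3, and early response and heat shock genes 1 of 25 and 4. Metallothionein and antioxidant genes had 3 of 20 higher and 1 lower, cholesterol synthesis 2 of 21 and 0, regulators of fat cells 1 of 10 and 2. Nuclear and long non-coding RNAs of the list had 0 of 18 higher and 2 lower, stromal identity genes 2 of 17 and 1, and Notch genes 0 of 4 and 0. Of the few cell cycle genes that reached 5 CPM, 2 of 7 G2 and M genes (median -0.04) and 1 of 8 S phase genes (median -0.25) were lower and 0 higher.

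**Figure D4:**
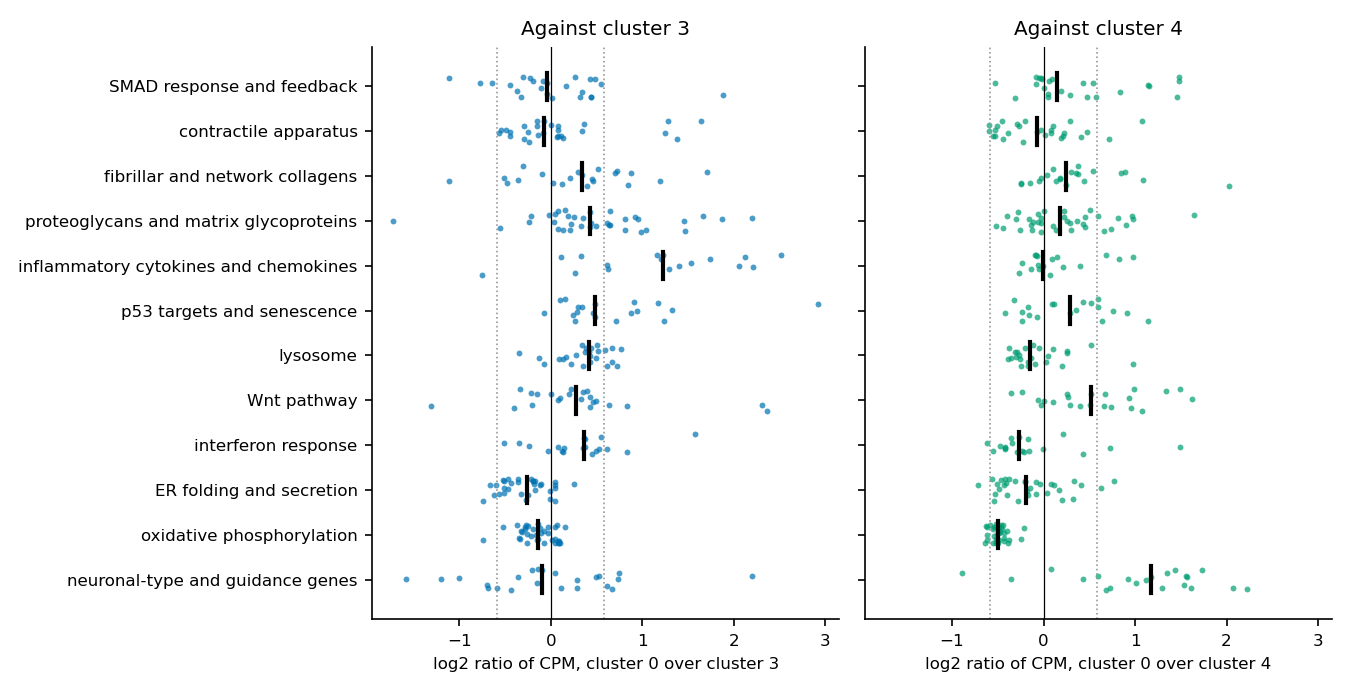
Log2 ratio of CPM of cluster 0 over cluster 3 (left) and over cluster 4 (right) for the measured members of 12 gene lists, 1 point a gene, with the median as a black bar and dotted lines at 1.5-fold. On the left the inflammatory list has a median of 1.22 and the SMAD list of -0.04, and on the right neuronal-type genes have a median of 1.17 and oxidative phosphorylation of -0.50.

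The comparison with cluster 4 had many of its higher calls among long genes. Neuronal-type and guidance genes, which are mostly long, had 17 of 21 higher, against 32.6% of all genes, and 1 lower in CPM (median 1.17). With TMM 13 were higher and 2 lower (median 0.74), beside 1646 and 2673 of all 10481 genes. DCLK2, a microtubule kinase, was at 621, 796, 209 and 79.5 CPM and the adhesion gene LSAMP at 231, 372, 75.6 and 494 CPM, with cluster 3 above cluster 0 in both. The guidance genes SLIT3 (385, 231, 157 and 353 CPM) and ROBO1 (108, 74.9, 42.4 and 70.9 CPM) were highest in cluster 0 among the treated clusters. Wnt genes had 10 of 22 higher, against 32.6% of all genes, and 0 lower (4 and 2 with TMM), among them the receptor gene ROR1 (165, 131, 53.4 and 233 CPM). Of genes lower in cluster 0, TIMP1, a secreted inhibitor of matrix proteases, stood at 4419, 3289, 7569.6 and 4419.6 CPM and was 1.71-fold lower (1.70 to 1.72). PHLDA2 (93.9, 154, 160.3 and 51.8 CPM) and the actin-associated gene PDLIM4 (104, 124, 177 and 74.99 CPM) were lower too. Cluster 4 had the lowest share of long non-coding UMIs, as given above, and a higher ribosomal share than cluster 0.

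The position of cluster 0 between the other treated clusters was counted gene by gene. Of 10433 genes tested against each, 393 were higher than in both, 29 lower than in both, 90 lower than in cluster 3 and higher than in cluster 4, and 0 the reverse. The level of cluster 0 lay between those of the other clusters for 3872 genes. These are CPM counts and were not repeated with TMM. Against cluster 4, TMM turned 3420 higher and 161 lower genes into 1646 and 2673, so the position depends on the scaling.

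Within cluster 0, depth separated few genes. Cells with 25000 UMIs or more (960, 18.1%) were compared with the 1663 under 7500. Of 10703 genes tested, 34 (0.318%) were higher in the deep cells and 378 (3.53%) lower. PHKG1, a phosphorylase kinase subunit, was at 34.7 CPM in shallow and 2.75 in deep cells, and at 37.7 CPM in cluster 5 of the TGFB1 library. C1orf56 went from 63.5 to 7.55 CPM (84.6 in cluster 5), and LRRC75A from 314 to 38.8 (369 in cluster 5). TALAM1 stood at 2119.7 CPM in shallow and 555 in deep cells, while MALAT1 was at 20892 and 21302. EGR1, an early response gene, was at 67.95 CPM in shallow and 28.8 in deep cells. In clusters 3 and 4, cells under 7500 UMIs (233) likewise stood above those with 25000 or more. There LRRC75A was at 229 against 35.4 CPM, C1orf56 at 45.6 against 7.12 and PHKG1 at 22.8 against 2.67. EGR1 was at 70.3 against 36.9 and TALAM1 at 747 against 343. Of 16 genes of G2 and M phase 13 were lower in the deep cells (median -1.35), TOP2A being at 10.5 against 2.02 CPM. In the contractile, p53, lysosomal and endoplasmic reticulum lists no gene passed in either direction.

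Differences of CEMIP, EBF1, BAALC and IL11 from clusters 3 and 4 kept their direction at matched depth, and their size varied. For cells with 7500 to 15000 UMIs, CEMIP was at 564 CPM in cluster 0 and 225 in clusters 3 and 4, and for cells with 15000 to 25000 UMIs at 639 and 190.3. EBF1 stood at 47.7 against 13.1 and at 54.4 against 12.9 CPM in those ranges. BAALC was lower in both, at 21.9 against 51.8 and 11.9 against 65.6 CPM, and so was IL11, at 118 against 171 and 90.6 against 170.4. For PHKG1, C1orf56 and LRRC75A the gap to clusters 3 and 4 was small above 25000 UMIs, with 38.8 against 35.4 CPM for LRRC75A.

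**Figure D5:**
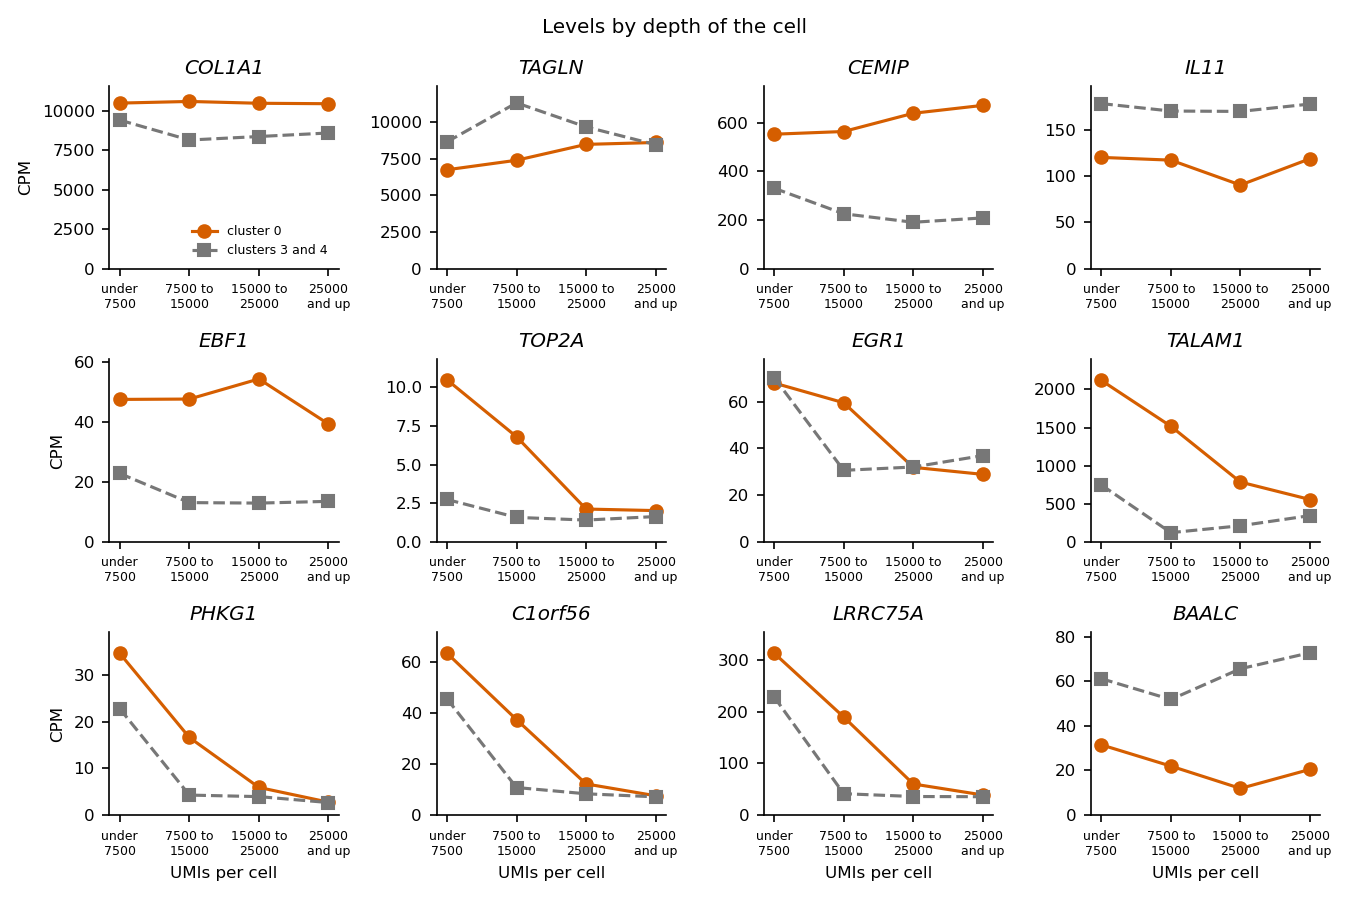
CPM of 12 genes in cells of cluster 0 (circles) and of clusters 3 and 4 (squares) by UMIs per cell, each panel starting at 0. CEMIP, EBF1, BAALC and IL11 keep the direction of their gap at each depth, with a size that varies, and PHKG1, C1orf56 and LRRC75A meet the other clusters in cells of 25000 UMIs and up.

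Cells of cluster 0 also varied among themselves at equal depth. The variance over the mean of thinned counts, which is 1 for pure counting noise, was largest for MALAT1 (40.03), TIMP1 (17.8) and IGFBP5 (15.6), followed by IGFBP3, SERPINE2, MT2A, TIMP3, FTH1, TAGLN and CEMIP (8.80). The same measure for MALAT1 was 21.02 in cluster 3 and 50.1 in cluster 4, and for TIMP1 19.1 and 31.6. For the same relative spread this measure grows with a gene's level, so the ranking favours abundant genes. Both genes also differed in level between the clusters. IL11 was spread over many cells with few UMIs each. Of thinned cells 51.3% had 0 IL11 UMIs, 28.8% had 1, 12.1% had 2 and 1.40% had 5 or more, and the tenth of cells with most IL11 held 41.2% of its UMIs. With so few UMIs a split into cells with and without an IL11 UMI sorts cells largely by sampling, so a low count of differences between them does not show that they are alike. Of 6319 genes only TSPAN13 was at least 1.5-fold higher in IL11 cells (0.0158%), at 39.96 against 26.5 CPM, and only CYP1B1, a cytochrome of xenobiotic metabolism, was lower (0.0158%), at 228 against 350.2 CPM. RASGRF2 (34.02 against 49.5) and RSPO3 (41.7 against 58.2) were lower by less than that.

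The 16 untreated cells placed in cluster 0 gave 355324 UMIs. IL11 had 3 UMIs in them, or 8.44 CPM (exact Poisson 95% interval 1.74 to 24.7), below the 110.3 CPM of the treated cells, and TSPAN13 had 0 UMIs, where 3 UMIs, the limit used here for a count of 0, are 8.44 CPM and the exact Poisson upper limit is 10.4 CPM. CDKN2B was at 174 CPM (134 to 224) and ACTA2 at 1106 (999 to 1221), above the 39.98 and 202 CPM of the whole untreated library. FGF13 had 1 UMI and PTX3 was at 64.7 CPM (41.03 to 97.1), between the treated and untreated levels. CEMIP was at 1956 CPM (1813 to 2107), near the 1737 CPM of the untreated library.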

How the data were processed

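The matrix that the authors deposited pools both libraries and gives UMI counts for 38606 gene names in 20656 cells. Their cell table, per the file headers, gives counts of UMIs and genes, the percent of mitochondrial UMIs, the library, the cluster number and map coordinates, used as scores without a unit. Seurat, Cell Ranger 9.0.1 and GRCh38 appear, without their roles, in the submitters' processing notes. The annotation and the use of strand in counting are not given in the sources used here. Cell sums of the matrix equalled the table's UMI totals in all 20656 cells. Gene positions come from GENCODE 29 (GRCh38), in which 23208 names were found.

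UMIs were summed per group and scaled to CPM. Cells were thinned to 7500 UMIs without replacement to compare groups at equal depth. No doublet caller was run, so any doublets were kept. The members and the gene lists were chosen with earlier results of these data known. Named genes are the 15 largest and 15 smallest ratios over clusters 3 and 4 at 20 CPM or more on either side that keep their direction against each cluster and after thinning, the 8 largest and 8 smallest against each cluster, the 10 against the untreated library in each direction, up to 4 members of each list by absolute log2 ratio over clusters 3 and 4, the 10 most variable genes at a mean of 0.2 thinned UMIs or more, and IL11. Other genes, among them list members, were named after their values were seen. Mitochondrial genes were not named, and values of a few list members are left out here. Alternatives were other thinning depths, a matched range of UMIs, equal weights for cells, other scalings, other minima, a stricter cell filter (1000 genes and 4% mitochondrial UMIs), totals without ribosomal and mitochondrial genes, and removal of cells that held a TOP2A or MKI67 UMI. The calculation was tested on simulated data. TMM factors came from edgeR 4.0.16 in R 4.3.3, which served for nothing else. The rest used pandas 2.3.3, matplotlib 3.10.9, scipy 1.17.1 and numpy 2.4.6 in Python 3.11.15.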

Additional observations from a re-analysis of the deposited data

How the results depend on the processing

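Counts of genes higher or lower in cluster 0 than in clusters 3 and 4 (985 and 136) moved with the settings. Thinning to 7500 UMIs gave 1478 higher, thinning to 5000 gave 1559, thinning to 12000 gave 217 lower, equal weights for cells gave 1551 higher, and unthinned cells with 12000 to 20000 UMIs gave 2506 higher and 404 lower. In that range cluster 4 makes up 59.1% of the 2 clusters' cells, against 48.8% overall. TMM gave 474 and 753, median-of-ratios 425 and 948, a minimum of 1 CPM 2114 and 224, and a minimum of 20 CPM 472 and 74. Against cluster 3 (679 and 371) the range of UMIs gave 1388 and 691, 1 CPM 1440 and 606, and 20 CPM 329 and 218. Against cluster 4 (3420 and 161) TMM gave 1646 and 2673, median-of-ratios 1629 and 2696, the largest changes in any count here, 1 CPM 5374 higher and 20 CPM 1957 higher. The lower genes there numbered 293 and 353 after thinning to 7500 and 5000 UMIs, 400 in the range of UMIs, 309 with equal weights and 392 without ribosomal and mitochondrial genes in the total. Against the untreated library (1160 and 1609) 2654 were lower at 1 CPM and 838 at 20 CPM. A lower or higher minimum tests more or fewer genes by construction, and the cause of the other shifts was not tested. Other counts stayed within 1.5 times. Of 207 named genes 136 passed 1.5-fold against clusters 3 and 4. All 136 kept their direction under every alternative run, and 99 stayed past 1.5-fold in each. For some runs the kept direction was fixed in advance. Scaling moves all log2 ratios alike. The median of all genes went from 0.10 to -0.11 with TMM and -0.15 with median-of-ratios, too little to reverse a 1.5-fold ratio. The genes of largest and smallest ratio over clusters 3 and 4 were also chosen to keep their direction after thinning. Of 39 list medians against clusters 3 and 4, 20 kept their sign under every alternative. No paired analysis was possible because there is 1 library per condition.

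With 1 library per condition, replicates could not be left out in turn. Depth limits low genes most, since 3 UMIs, which a count of 0 allows, are 0.0363 CPM in cluster 0, 0.0507 in cluster 3 and 0.0720 in cluster 4.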
